A study of Mus musculus with 6 samples.

Results

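The cytosolic heat shock chaperones examined here were 10 genes taken by name: Hspa8, Hspa1a and Hspa1b of the HSP70 family, the HSP110 gene Hsph1, the J protein genes Dnajb1 and Dnaja1, the HSP90 genes Hsp90aa1 and Hsp90ab1, the small heat shock protein gene Hspb1, and Bag3. All 10 were found among the 20788 genes listed in the deposited tables, and all 10 passed the filter on low values that left 14336 genes for testing. The cells were Tyr-H and Tyr-L, subclones of B16, a melanoma line from C57BL/6 mice, told apart by high and low tyrosinase activity. Both were kept at 37 °C in low-glucose DMEM with serum, with no treatment given in the labels, and mRNA was sequenced in 3 libraries of each (6 in all). Per the study's methods, subclones were obtained by sparse plating, after which separate clones were picked and grown up. How many clones stand behind each group, and whether its 3 libraries came from separate cultures, is not stated in the sources used here, so the p-values measure the spread between these libraries, which may be technical.

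Heat shock chaperones hold unfolded proteins in solution and help them fold. HSP70 proteins bind exposed stretches of a client in a cycle driven by ATP, J proteins deliver the client and start that cycle, nucleotide exchange factors such as HSP110 and BAG3 end it, and HSP90 takes over many kinases and receptors at a late stage of folding. Some of these genes are expressed in every cell (Hspa8, Hsp90ab1), while others are strongly induced by heat or by damaged protein (Hspa1a, Hspa1b, Dnajb1, Hspb1, Bag3) through heat shock factor 1 (HSF1), which binds repeats of the 5-letter unit NGAAN in their promoters. ATF4, the transcription factor raised when eIF2 is phosphorylated, drives a separate set of genes for amino acid supply and stress feedback. The question was how the heat shock genes differed between Tyr-H and Tyr-L cells next to the ATF4 genes.

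The promoters are shown first, with the letters of the unit that HSF1 binds. RefSeq promoter windows (assembly GRCm38.p6, 250 bases before to 50 bases after each start) were found for 7 of the 10 genes. The other 3 were Hspa8, Hsp90aa1 and Hsp90ab1. Both strands were searched for 2 adjoining units in either order, GAANNTTC and TTCNNGAA. Below, capitals mark the GAA and TTC letters of such pairs, and each line runs 5′ to 3′ on the strand of the gene. Flanks are shorter where the match lies inside a gene as annotated.
Hspa1a, chr17:34972228-34972285, minus strand: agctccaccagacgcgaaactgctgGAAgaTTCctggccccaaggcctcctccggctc
Hspa1b, chr17:34959310-34959367, minus strand: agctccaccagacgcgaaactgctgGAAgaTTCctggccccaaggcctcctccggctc
Hsph1, chr5:149636352-149636379, minus strand: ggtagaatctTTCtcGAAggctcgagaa
Hsph1, chr5:149636280-149636308, minus strand, after the start: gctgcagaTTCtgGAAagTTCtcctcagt
Dnaja1, chr4:40722334-40722361, plus strand: aaagcctctaGAAaaTTCtacgaggctc
Hspb1, chr5:135887777-135887854, plus strand: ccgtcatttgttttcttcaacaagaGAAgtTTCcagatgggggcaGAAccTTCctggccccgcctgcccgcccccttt
Bag3, chr7:128523617-128523632, plus strand, after the start: tgggaccaGAAgtTTC

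GAANNTTC was present in the windows of 6 of the 7 genes (85.7%), and in 9.04% of all genes with a window (7.86% of all 32851 windows). Dnajb1 held no match to either pair in its 2 windows. The match of Dnaja1 stood in 1 of its 3 windows and lies inside the gene as annotated. TTCNNGAA was present in 1 of the 7, Hsph1, and in 9.60% of all genes with a window. The longer element of 3 units in alternating order was found only in Hsph1 among the 7, after the start, where its letters overlap both pairs, and it stood in 0.66% of all genes with a window. Hspb1 carried 2 separate GAANNTTC matches, at -117 and -97 bases from its start. The ATF4 element TGATGNAA, searched in the same way, was in none of the 7 genes with a window, in 11 of the 31 genes of the ATF4 list below that have one (35.5%), and in 4.51% of all genes with a window. The windows of Hspa1a and Hspa1b were identical at 296 of 300 bases. A match is a run of letters only, and factor binding was not measured.

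**Figure D1:**
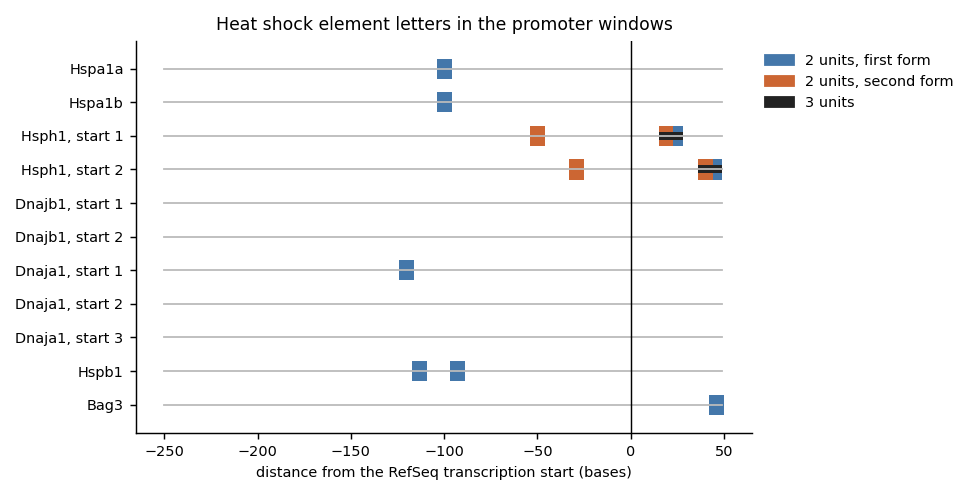
Positions of the heat shock unit letters in each RefSeq promoter window of the 7 genes that have one, in bases from the transcription start (vertical line), with 1 row per annotated start. Blue blocks are GAANNTTC (first form), orange blocks TTCNNGAA (second form) and black bars the 3-unit element. Hspa1a, Hspa1b, Dnaja1 (in 1 of its 3 windows) and Hspb1 have their matches before the start, Bag3 after it, Hsph1 on both sides, and Dnajb1 has none.

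The levels of these genes spanned a wide range, led by the constitutive genes. Levels are given as FPKM, fragments per kilobase of transcript and per 1000000 mapped fragments, which allows genes to be compared per length. In mean FPKM over the 6 libraries the order from the top was Hspa8, Hsp90ab1, Hsp90aa1, Dnaja1, Hsph1, Bag3, Dnajb1, Hspb1, Hspa1b and Hspa1a. Hspa8 ranked 22 among the 14336 tested genes, whereas Hspa1b ranked 11031 and Hspa1a 13685. In neither group did the library ranges of neighbours in this order overlap. Hspa8 alone made up 46.8 to 51.0% of the summed FPKM of the 10 genes in a library, and the HSP90 pair 43.4 to 46.9%.

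The sum over all 10 genes was lower in Tyr-H cells on the deposited scale. It was 3561, 3477 and 3295 FPKM in Tyr-L libraries 1 to 3 and 3099.7, 2753 and 2918.5 FPKM in Tyr-H libraries 1 to 3. As a share of all FPKM in a library this was 0.738 to 0.780% in Tyr-L and 0.576 to 0.655% in Tyr-H. The groups did not overlap, and of single tested genes 43.8% were separated downwards on the deposited scale. The sum was not tested under other scalings. Over the alternatives the log2 fold change of Hspa8 rose to as much as 0.006 and that of Hsp90ab1 to 0.051. The sum follows its most abundant members, so the genes are described one by one below, with their Ensembl identifiers and their positions in GRCm38 (GENCODE M21). In cultured cells sequenced in bulk, fewer cells that express a gene and less RNA per cell cannot be told apart.

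**Figure D2:**
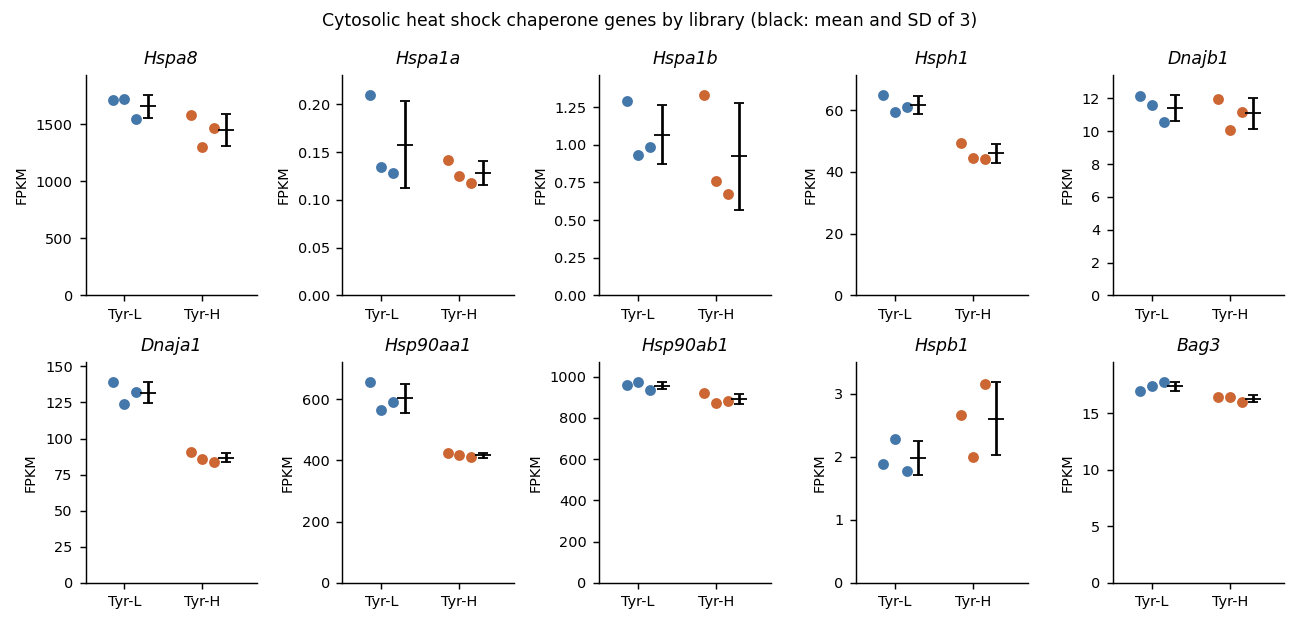
FPKM of the 10 chaperone genes in each library (y axis, from 0, with a separate scale for each gene), Tyr-L in blue and Tyr-H in orange, libraries 1 to 3 from left to right, with the mean and SD of each group in black. Hsph1, Dnaja1 and Hsp90aa1 show a gap between the groups that is wide against the spread within them, while Hspa1a, Hspa1b, Dnajb1 and Hspb1 overlap.

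Dnaja1, Hsp90aa1 and Hsph1 were lower in Tyr-H cells, by less than 2-fold, and their log2 fold changes shrank to -0.27, -0.31 and -0.19 with correction for GC content and length, still past the adjusted p. None of the 10 was higher by the adjusted p on this scale. None of the 10 changed by 2-fold or more, the size needed for a call next to an adjusted p no larger than 0.05 (limma, Benjamini-Hochberg over all tested genes), where 2.96% of all tested genes were called higher and 5.78% lower. At an unadjusted p under 0.05, 5 of the 10 differed, beside 62.4% of all tested genes. By the adjusted p alone, the same 5 were lower in Tyr-H (Hspa8, Hsph1, Dnaja1, Hsp90aa1 and Hsp90ab1) and 0 were higher, against 39.9% of all tested genes lower and 17.9% higher. The share of lower genes was thus not far from that of all genes, and the median log2 fold change of the 10 genes was -0.18 where that of all tested genes was -0.15. Relative to that median of all genes, the log2 fold change was -0.45 for Dnaja1, -0.38 for Hsp90aa1 and -0.27 for Hsph1. It was -0.04 for Hspa8 and 0.05 for Hsp90ab1. The libraries of Tyr-H all lay below those of Tyr-L for 5 genes (Hsph1, Dnaja1, Hsp90aa1, Hsp90ab1 and Bag3) and all above for 0, where 43.8% of all tested genes were separated downwards and 20.2% upwards.

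**Figure D3:**
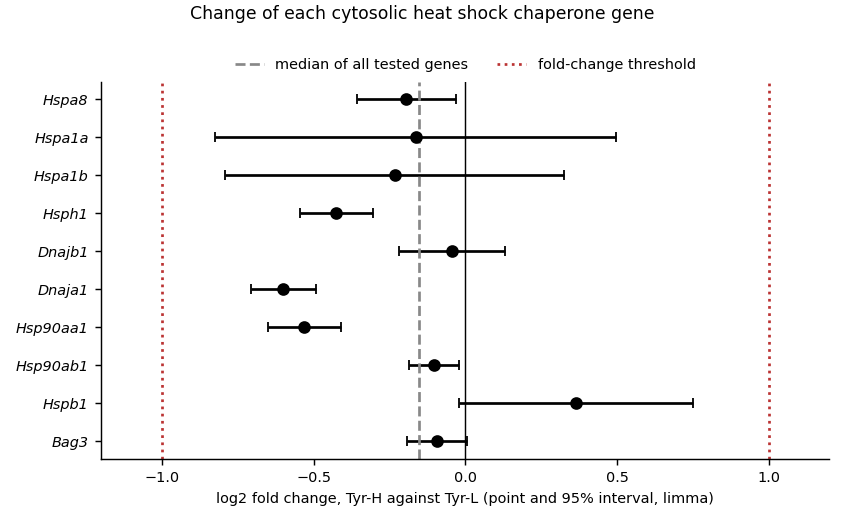
Log2 fold change of each chaperone gene in Tyr-H against Tyr-L (x axis, points) with its 95% interval from limma (bars). The solid line marks no change, the dashed line the median of all tested genes at -0.15, and the dotted lines the 2-fold threshold, which no point passes. The intervals of Hsph1, Dnaja1 and Hsp90aa1 lie wholly below the dashed line.

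Among the HSP70 genes, the constitutive Hspa8 was very abundant and the inducible pair close to silent in both subclones. Hspa8 (ENSMUSG00000015656, chr9:40800984-40810087, plus strand) encodes the cognate HSP70 that also uncoats clathrin vesicles. It was at 1708, 1723 and 1543 FPKM in Tyr-L and 1581, 1302 and 1469.7 FPKM in Tyr-H. The groups overlapped, since the highest Tyr-H library lay above the lowest Tyr-L library. The log2 fold change was -0.20 (SE 0.07, adjusted p = 0.0429, limma), with a mean 0.875 times that of Tyr-L, and the exact permutation test of 3 against 3 gave p = 0.2, with 0.1 the smallest it allows. The size of this value moved with the scaling. It was 0.01 with correction for GC content and length and -0.04 with median ratio scaling, neither past the threshold, but -0.29 (adjusted p = 0.00335) with each library rescaled to the same total and -0.48 (adjusted p = 0.000315) with quantile normalization. Without library 2 of Tyr-H it was -0.12 (adjusted p = 0.164).

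Hspa1b (ENSMUSG00000090877, chr17:34956436-34959238, minus strand), one of the main heat-inducible HSP70 genes, was at 1.29, 0.930 and 0.983 FPKM in Tyr-L and 1.33, 0.761 and 0.673 FPKM in Tyr-H. Library 1 was the highest in both groups, and the groups overlapped. The difference was -0.23 on the log2 scale with a 95% interval from -0.79 to 0.32 (adjusted p = 0.443, limma), an interval that still holds a fall as large as that of Dnaja1 but not an equal rise. When 1 library was left out, the log2 fold change of Hspa1b lay between -0.51 and -0.06, and it passed the adjusted p in no alternative. At the estimated depth its values correspond to about 37 to 80 fragments a library.

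Hspa1a (ENSMUSG00000091971, chr17:34969190-34972156, minus strand), its neighbouring copy, was lower still, at 0.210, 0.135 and 0.128 FPKM in Tyr-L and 0.142, 0.125 and 0.117 FPKM in Tyr-H, or about 7 to 12 fragments a library. The groups overlapped, with a log2 fold change of -0.16 (SE 0.29, 95% interval -0.82 to 0.50, adjusted p = 0.654, limma, on log2(FPKM + 0.1), which understates changes at this level). With quantile normalization this direction turned (0.10). The coding sequences of Hspa1a (1926 bases) and Hspa1b (1929 bases) differed at 8 aligned bases (99.6% identity), and 39.7% of all 150-base stretches of the Hspa1a transcript also occur in another gene, in Hspa1b for 38.1%. Their separate values are therefore uncertain. Hspa1a also overlaps Gm20481 on the opposite strand. Summed into a single gene, the pair had a log2 fold change of -0.24 (SE 0.23, adjusted p = 0.416, limma).

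The inducible share of HSP70 transcripts did not separate the subclones. The ratio of Hspa1a plus Hspa1b to Hspa8 within a library was 0.000739 ± 0.000131 in Tyr-L and 0.000717 ± 0.000200 in Tyr-H (SD, n = 3 each), with an exact permutation p of 0.9. On the log2 scale the change of this ratio was -0.04, and -0.28 to 0.13 when 1 library was left out, so its direction rests on single libraries. Hspa8 and Hspa1a shared 74.5% of aligned coding bases. For Hspa8 itself, 21.9% of the stretches also occur elsewhere, mostly in Gm15459, and it overlaps the small nucleolar RNAs Snord14c, Snord14d and Snord14e on its own strand.

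Hsph1 (ENSMUSG00000029657, chr5:149614287-149636376, minus strand) encodes HSP105, an HSP110 protein that releases ADP from HSP70 and holds unfolded clients. It fell in Tyr-H cells, from 65.0, 59.3 and 60.9 FPKM in Tyr-L to 49.4, 44.4 and 44.1 FPKM. Every Tyr-H library was below every Tyr-L library, by a margin wider than the spread of either group. The log2 fold change was -0.43 (SE 0.05, adjusted p = 0.000119, limma), and the mean was 0.745 times that of Tyr-L. No 150-base stretch of its transcript occurs in another gene, and no other gene overlaps it. Among the 7 genes with a window it is the one with the 3-unit element shown above.

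The J protein genes parted. Dnaja1 encodes a class A J protein with a zinc-binding domain and fell in Tyr-H, whereas Dnajb1, the class B J protein HSP40 that is induced by heat, was at like values. Dnaja1 (ENSMUSG00000028410, chr4:40722150-40737149, plus strand) was at 139, 124 and 132 FPKM in Tyr-L and 90.6, 85.8 and 84.0 FPKM in Tyr-H. The groups were far apart, and the log2 fold change of -0.60 (SE 0.05, adjusted p = 7.54e-06, limma), a mean 0.659 times that of Tyr-L, was the largest among the 10 genes on this scale. Hsp90aa1 changed more with quantile normalization (-0.67 against -0.57), Hspb1 did with median ratio scaling (0.51 against -0.45), and both Hsp90aa1 and Hspb1 did with correction for GC content and length (-0.31 and 0.32 against -0.27). Dnaja1 shares its deposited locus with other genes and overlaps Smu1 and Gm6297 on the opposite strand and Mir207 on its own, and 11.6% of its stretches occur elsewhere, mostly in Gm15542, so reads of these genes may be counted in part for it.

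Dnajb1 (ENSMUSG00000005483, chr8:83608193-83612653, plus strand) was at 12.1, 11.6 and 10.6 FPKM in Tyr-L and 11.99, 10.1 and 11.2 FPKM in Tyr-H. The groups overlapped almost wholly. Its log2 fold change of -0.04 had a 95% interval from -0.22 to 0.13 (adjusted p = 0.65, limma), which leaves out a change as large as that of Dnaja1. The direction turned with median ratio scaling (0.11), with quantile normalization (0.11), with correction for GC content and length (0.02) and without library 2 of Tyr-H (0.02). Its transcript shares no stretch with another gene.

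Both HSP90 genes were lower in Tyr-H on this scale, with the larger fall in the inducible form. Hsp90aa1 (ENSMUSG00000021270, chr12:110690605-110702728, minus strand), which codes for the stress-inducible HSP90 alpha, was at 657, 565 and 590.2 FPKM in Tyr-L and 425, 417 and 409.7 FPKM in Tyr-H. The Tyr-H libraries lay close to each other and well below the lowest Tyr-L library. The log2 fold change was -0.53 (SE 0.05, adjusted p = 2.95e-05, limma), and the mean was 0.691 times that of Tyr-L. Of its stretches, 36.2% occur in another gene, mostly Gm12346.

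Hsp90ab1 (ENSMUSG00000023944, chr17:45567775-45573271, minus strand), which codes for the constitutive HSP90 beta, was at 960.0, 973 and 938 FPKM in Tyr-L and 921, 874 and 879.9 FPKM in Tyr-H. The groups did not overlap, but the difference was small, with a log2 fold change of -0.10 (SE 0.04, adjusted p = 0.0371, limma) and a mean 0.932 times that of Tyr-L. Scaling by the median ratio turned its direction (0.05, adjusted p = 0.302, limma), whereas the fall was -0.20 (adjusted p = 0.00139) with each library rescaled to the same total and -0.30 (adjusted p = 0.000165) with quantile normalization. The coding sequences of both genes shared 76.3% of aligned bases, and no 150-base stretch of Hsp90ab1 occurs in another gene.

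The balance between both HSP90 forms is left as it is by any factor common to all genes of a library, though not by quantile normalization or by correction for GC content and length. The ratio of Hsp90aa1 to Hsp90ab1 was 0.684, 0.580 and 0.629 in Tyr-L libraries and 0.462, 0.477 and 0.466 in Tyr-H libraries. All 3 Tyr-H values lay below the lowest Tyr-L value. The mean was 0.631 ± 0.0521 in Tyr-L and 0.468 ± 0.00788 in Tyr-H (SD, n = 3 each), 0.742 times that of Tyr-L, and the exact permutation p was 0.1, the smallest possible.

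**Figure D4:**
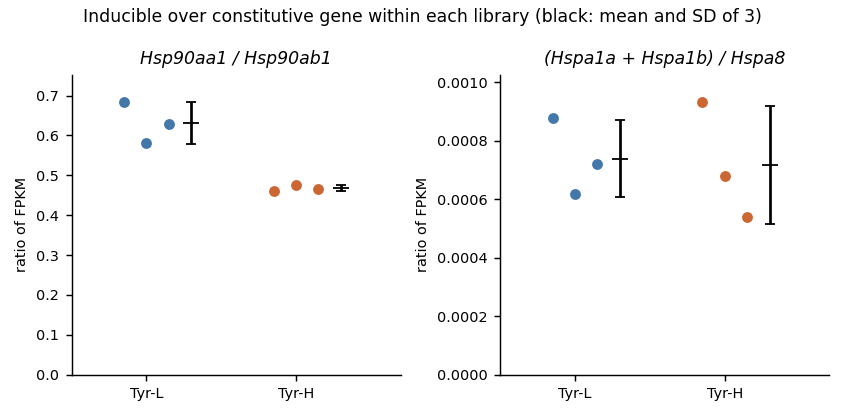
Within-library FPKM ratios (y axis, from 0) of the inducible over the constitutive gene, for HSP90 on the left and HSP70 on the right, with 1 point per library and the mean and SD of each group in black. The HSP90 ratio is 0.580 to 0.684 in Tyr-L and 0.462 to 0.477 in Tyr-H, and the HSP70 ratio overlaps.

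Hspb1 (ENSMUSG00000004951, chr5:135887919-135889563, plus strand) encodes HSP25, a small heat shock protein that holds clients without ATP, and it was the only member with a higher mean in Tyr-H. It was at 1.88, 2.28 and 1.77 FPKM in Tyr-L and 2.66, 2.00 and 3.16 FPKM in Tyr-H. Library 2 of Tyr-H fell inside the range of Tyr-L. The log2 fold change was 0.37 (SE 0.17, 95% interval -0.02 to 0.75, adjusted p = 0.0955, limma), which missed the threshold. It passed without library 2 of Tyr-H (0.54, adjusted p = 0.0189), with median ratio scaling (0.51, adjusted p = 0.0306) and with quantile normalization (0.53, adjusted p = 0.0287). It was smaller without library 3 of Tyr-H (0.22, adjusted p = 0.303) and without library 3 of Tyr-L (0.29, adjusted p = 0.244). The values stand for about 31 to 57 fragments a library, and 36.6% of its stretches also occur in the pseudogene Hsp25-ps1.

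Bag3 (ENSMUSG00000030847, chr7:128523616-128546981, plus strand) encodes the exchange factor that hands HSP70 clients to autophagy together with HSPB8 and is strongly induced by proteotoxic stress. It was at 16.9, 17.4 and 17.7 FPKM in Tyr-L and 16.4, 16.5 and 15.9 FPKM in Tyr-H. The groups did not overlap, yet the log2 fold change was only -0.09 (SE 0.04, 95% interval -0.19 to 0.01, adjusted p = 0.0951, limma), a mean 0.937 times that of Tyr-L. The direction turned with median ratio scaling (0.06) and with quantile normalization (0.04). The TEC annotation 2610306O10Rik lies in an intron of Bag3 on the same strand.

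Library 1 was the highest of its group in both Tyr-L and Tyr-H for 6 of the 10 genes (Hspa1a, Hspa1b, Hsph1, Dnajb1, Dnaja1 and Hsp90aa1), while this was so for 10.2% of all tested genes. Without library 1 of Tyr-L the log2 fold changes were -0.39 for Hsph1, -0.56 for Dnaja1 and -0.47 for Hsp90aa1, and without library 1 of Tyr-H they were -0.48, -0.63 and -0.54. All were past the threshold.

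None of the factors that control these genes was higher in Tyr-H by the adjusted p. Hsf1, the master factor of the heat shock response, was at 18.5 ± 0.673 FPKM in Tyr-L and 17.1 ± 0.768 in Tyr-H (SD, n = 3 each), with a log2 change of -0.11 (adjusted p = 0.0876, limma). This direction turned with median ratio scaling (0.04) and quantile normalization (0.02), while the value passed the adjusted p with each library rescaled to the same total (-0.21, adjusted p = 0.0114) and without library 2 of Tyr-H (-0.15, adjusted p = 0.0481). Hsf2, which binds the same elements and is active in development and on proteasome inhibition, fell from 9.25, 10.1 and 10.3 FPKM to 5.96, 6.38 and 6.35 FPKM (log2 fold change -0.65, SE 0.07, adjusted p = 3.23e-05). Its groups were well apart, and the value was -0.32 (adjusted p = 0.00634) with correction for GC content and length. Hsf4, the lens factor, was at 5.67 ± 0.233 and 4.95 ± 0.309 FPKM (-0.19, adjusted p = 0.0579), and its log2 change passed with each library rescaled to the same total (-0.29, adjusted p = 0.00938) but not with quantile normalization (-0.01, adjusted p = 0.954). Hsbp1, whose small protein binds HSF1 and restrains it, was at 43.3 ± 1.504 and 39.4 ± 1.07 FPKM (-0.13, adjusted p = 0.0173), a direction that turned with median ratio scaling (0.02) and with correction for GC content and length (0.003). Hsf5 was under the filter.

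The wider chaperone machinery was taken from 8 lists with 87 genes, of which 82 were tested. By the adjusted p 42 were lower (51.2%) and 14 higher (17.1%) in Tyr-H, at a median log2 fold change of -0.14, and 2 were called higher and 1 lower. Of all tested genes 39.9% were lower and 17.9% higher, at a median of -0.15. These counts depend on the scaling. With median ratio scaling 23 of the 82 were lower (28.0%) and 25 higher (30.5%), beside 27.0% and 27.8% of all tested genes. With correction for GC content and length 24 were lower and 21 higher, beside 26.1% and 28.5% of all genes. With quantile normalization the counts were 32 and 17, beside 27.8% and 26.0%, and with each library rescaled to the same total 50 and 7, beside 47.8% and 13%. The same shares of all genes are the background of each list below under that scaling. Among the lists below, the lower genes with median ratio scaling were 5 of 13 for the J proteins, 2 of 8 for the HSP70 partners and 6 of 17 for the HSP90 co-chaperones. In the other HSP70 and HSP110 genes 3 of 7 were lower and 0 higher. Hspa14, a ribosome-associated HSP70, had the largest change among them (45.0 ± 0.783 to 26.2 ± 1.121 FPKM, log2 fold change -0.78, adjusted p = 9.39e-07), and it stands in the tables under 2 overlapping identifiers, of which the more abundant was used. Hspa1l, next to Hspa1a, was at 0.320 ± 0.122 and 0.173 ± 0.0740 FPKM (-0.61, adjusted p = 0.145).

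Among the partners of HSP70, 9 of 13 other J protein genes were lower and 1 higher. The largest changes were in Dnajc13, which acts in endosome trafficking (29.7 ± 0.272 to 21.5 ± 0.821 FPKM, log2 fold change -0.46, adjusted p = 1.6e-05), and Dnajc7, which binds both HSP70 and HSP90 (75.4 ± 1.601 to 55.9 ± 1.57 FPKM, -0.43, adjusted p = 9.46e-06). Of the 8 nucleotide exchange factors and HSP70 partners, 5 were lower and 1 higher (2 and 2 with median ratio scaling, 3 and 1 with correction for GC content and length). Bag4 went from 6.14 ± 0.439 to 4.31 ± 0.461 FPKM (-0.51, adjusted p = 0.00158) and St13, the HSP70-interacting protein HIP, from 90.3 ± 1.66 to 65.5 ± 2.37 FPKM (-0.46, adjusted p = 7.62e-06). With correction for GC content and length, only 3 of the 13 J protein genes were lower and 3 higher, and Dnajc13 and Bag4 missed the threshold.

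HSP90 co-chaperones were lower for 11 of 17 genes and higher for 2. The activator of the HSP90 ATPase Ahsa2 changed most, from 21.2 ± 0.146 to 13.3 ± 0.431 FPKM (log2 fold change -0.67, adjusted p = 3.02e-06), although it overlaps Usp34 on the opposite strand. Values of Dnajc13, Dnajc7, Bag4, Tomm34, Pfdn4, Sqstm1 and Ppp1r15a, which also share a locus with another gene, are uncertain in the same way. Tomm34, which carries mitochondrial precursors between HSP70 and HSP90, went from 16.9 ± 0.170 to 11.4 ± 0.931 FPKM (-0.56, adjusted p = 5.28e-05). Lower genes numbered 10 with quantile normalization (27.8% of all genes), 7 with correction for GC content and length (26.1% of all genes) and 14 with each library rescaled to the same total (47.8% of all genes).

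The cytosolic chaperonin TRiC and its helper prefoldin, which fold actin and tubulin, were split, with 6 of 14 genes lower and 5 higher and the largest changes in Cct3 (-0.38, adjusted p = 1.44e-05) and Pfdn4 (-0.37, adjusted p = 0.000423). With median ratio scaling this became 3 lower and 8 higher, and with correction for GC content and length 3 lower and 6 higher. The other small heat shock protein genes held both kinds of call. Hspb8, which binds BAG3, rose from 3.51, 4.64 and 3.92 FPKM to 10.8, 10.5 and 10.0 FPKM (2.59-fold in mean FPKM, log2 fold change 1.36, SE 0.10, adjusted p = 4.55e-06). Hspb9, a testis form near the filter, fell from 0.196, 0.2996 and 0.243 FPKM to 0.120, 0.0582 and a library listed at 0 (-1.18, adjusted p = 0.0206). The size of this difference depends on the pseudocount (-2.50 with 0.01 FPKM and -0.24 with 1 FPKM, the latter under the 2-fold threshold). The call was also lost with quantile normalization (-0.96, adjusted p = 0.0657) and without library 2 of Tyr-L (-1.07, adjusted p = 0.0665), library 3 of Tyr-L (-1.18, adjusted p = 0.0502) or library 3 of Tyr-H (-0.88, adjusted p = 0.0615). Among 13 other targets of HSF1, 3 were higher and 3 lower (6 and 1 with median ratio scaling). Sqstm1, the autophagy receptor p62 and also a target of NRF2, rose from 465 ± 6.63 to 1023 ± 53.1 FPKM (1.14, adjusted p = 1.84e-07).

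Next to the heat shock genes, the ATF4 list was higher in Tyr-H, and by far more. Of its 36 tested genes 28 were called higher and 0 lower, and 35 were higher by the adjusted p (97.2%), a count that was 35 under each of 4 other scalings too. The list median was 1.55 on the log2 scale. Trib3, a pseudokinase that feeds back on ATF4, rose from 7.25, 12.3 and 9.77 FPKM to 104, 125 and 125 FPKM (12.1-fold, log2 fold change 3.61, SE 0.16, adjusted p = 3.72e-07). Every Tyr-H library was above every Tyr-L library by a wide margin.

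The next largest changes of the ATF4 list were in Nupr1, a stress-induced chromatin protein (3.14), Ppp1r15a, which restores eIF2 by dephosphorylation (3.09), the lipoprotein receptor Vldlr (3.06), Pycr1 of proline synthesis (3.04) and the repressor Atf3 (2.67), all on the log2 scale with adjusted p values between 2.79e-07 and 7.77e-07 (limma). The smallest rise among these 6 at the pseudocount of 0.1 FPKM, in Atf3, was from 5.71 ± 1.02 to 36.6 ± 2.85 FPKM. Vldlr, at a mean of 0.303 FPKM in Tyr-L, was 10.8-fold in mean FPKM, above Nupr1 (8.86-fold). Its log2 fold change ranged from 1.71 to 3.44 over the alternatives, so the place of Vldlr in this order is not fixed. No chaperone member changed by more than 0.60 in either direction on the deposited scale. The lists were chosen with results of these libraries known, so the contrast between them is a description and not independent evidence.

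**Figure D5:**
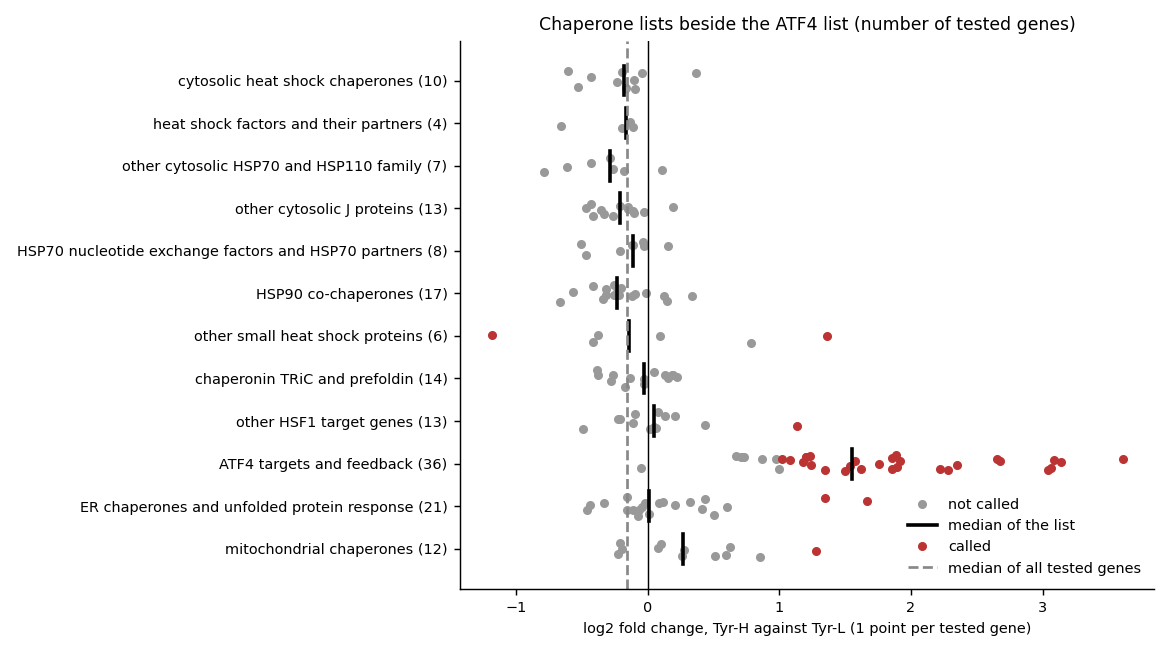
Log2 fold change in Tyr-H against Tyr-L (x axis) of each tested gene in the chaperone, ATF4, endoplasmic reticulum and mitochondrial lists (rows, with the number of tested genes). Red points are the called genes, black bars the list medians, and the dashed line the median of all tested genes. The 10 cytosolic heat shock chaperones lie between -0.60 and 0.37, and the ATF4 list is the one whose median, 1.55, lies beyond the 2-fold threshold.

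Chaperones of other compartments were taken from a pair of further lists. In the endoplasmic reticulum list 7 of 21 genes were higher and 6 lower (11 and 3 with median ratio scaling). Only Herpud1, a part of ER-associated degradation (23.6 ± 2.56 to 76.1 ± 17.1 FPKM, log2 fold change 1.67, adjusted p = 1.65e-05), and Dnajb9, an ER J protein (10.2 ± 0.414 to 26.5 ± 5.22 FPKM, 1.35, adjusted p = 1.43e-05), were called. For both, library 1 was the lowest of Tyr-H (56.5 and 21.4 FPKM), yet above every Tyr-L library. In the mitochondrial list 7 of 12 were higher and 3 lower (9 and 0 with median ratio scaling, 8 and 0 with correction for GC content and length), with the protease Lonp1 called (39.8 ± 0.372 to 96.7 ± 5.80 FPKM, 1.28, adjusted p = 1.53e-07).

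The tables listed 16813 to 17413 genes a library, at an estimated 18600000 to 22200000 fragments. Tyr, the gene that names the groups, was at 10.0 ± 0.602 FPKM in Tyr-L and 21.3 ± 2.14 in Tyr-H (log2 fold change 1.08). All 10 melanocyte markers were measured above the filter, at a summed 7583 to 7906 FPKM in Tyr-L and 5646 to 6201 FPKM in Tyr-H. By the adjusted p 8 of the 10 were lower in Tyr-H and 1, Tyr, higher, where 39.9% of all tested genes were lower. Mitf (log2 fold change -1.85) and Oca2 (-2.06) were called lower, and Tyr was called higher. Of 10 immune markers 2 passed the filter, Cd68 and Lyz2 (summed level of the list 3.44 to 4.21 FPKM in Tyr-L and 4.63 to 4.83 FPKM in Tyr-H), and Ptprc, Itgam and Csf1r were not listed. Fibroblast and endothelial markers summed to 1.04 to 1.05 FPKM in Tyr-L and 1.00 to 1.205 FPKM in Tyr-H, with Pecam1 and Dcn under the filter, and no keratinocyte marker passed it. The part of such cells in the results was not tested.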

How the data were processed

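The submitters' processing notes name Trimmomatic, HISAT, HISAT2 and the build GRCm38.p6. The libraries were read as pairs of 150 nt, and the counting tool is not given in the sources used here. The authors deposited 1 table of FPKM values per library, which are scaled for transcript length and depth. A gene not listed in a library was taken as 0. Depth was estimated from the steps between low values, but only 25.8 to 30.1% of these came out whole (within 0.1 fragments). This is not far above what a wrong depth would give, so the depth estimate is weakly supported and no count test was run. Fragment numbers are approximate and cover counting error only.

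Here log2(FPKM + 0.1) was compared for 14336 genes (mean over the libraries not below 0.1 FPKM) with limma 3.58.1 in R 4.3.3 (variance trend, Benjamini-Hochberg adjustment). Calls needed both an adjusted p up to 0.05 and a log2 change of 1 or more in size. Single ratios had an exact permutation test, two-sided. Alternatives changed the pseudocount, filter, scaling, variance trend, fold threshold, GC and length correction, replicate block and libraries used. Annotation was GENCODE M21 (20709 of 20788 genes found). Promoters came from RefSeq, and no protein table was used, so identity was computed on coding sequences with Python 3.11.15 and Biopython 1.88. The members and lists were chosen with earlier results of these data known. All members were named, with all heat shock factors and Tyr. From each list other than the cell type markers, the called genes, up to 6, or otherwise the 2 largest changes were named. Replicates were compared: libraries of a group differed by a median of 0.095 to 0.114 on the log2 scale and libraries of different groups by 0.315 to 0.371.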

Additional observations from a re-analysis of the deposited data

How the results depend on the processing

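Hsph1, Dnaja1 and Hsp90aa1 were lower at an adjusted p of at most 0.05 in each of the 18 alternatives. Their log2 fold changes were -0.52 to -0.19, -0.70 to -0.27 and -0.67 to -0.31, smallest with correction for GC content and length. The alternative with no fold threshold uses the main fit, so its values for single genes are the same by construction. The 5 genes lower by the adjusted p became 3 with no filter on low values, with median ratio scaling, with no variance trend, with a replicate block and with correction for GC content and length with or without that block. They were 3 to 5 when 1 library was left out (3 without library 1 or 2 of Tyr-L or library 2 or 3 of Tyr-H). Genes higher by the adjusted p became 1, Hspb1, with median ratio scaling and with quantile normalization, and 0 to 1 when 1 library was left out (1 without library 2 of Tyr-H). With no fold threshold 5 of the 10 genes were called, 56 in the other cytosolic chaperone lists, 13 in the endoplasmic reticulum list and 10 in the mitochondrial list. The cytosolic lists held 1 call with quantile normalization and the mitochondrial list 2 with median ratio scaling and with correction for GC content and length, with or without the block.

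Single genes were followed over the alternatives only for the members, Tyr and the genes named from lists other than the cell type markers. Among those of them past the adjusted p, directions turned for Hspa8 (0.006) and Hsbp1 (0.003) with correction for GC content and length, with or without the block. They also turned for Hsp90ab1 (0.051) and Hsbp1 (0.020) with median ratio scaling. Of members not past it, Dnajb1 turned with median ratio scaling (0.109), quantile normalization (0.112), that correction (0.015) and without library 2 of Tyr-H (0.022), Bag3 with median ratio scaling (0.060) and quantile normalization (0.041), and Hspa1a with quantile normalization (0.104). Hsf1, also not past it, turned with median ratio scaling (0.042) and quantile normalization (0.020). Scaling also moved the median of all genes, from -0.154 to -0.010 with median ratio scaling, -0.013 with quantile normalization, -0.002 with that correction and -0.250 with rescaling to 1 total. The share of called genes that were higher was 33.9% and became 47.8%, 55.3% and 51.4% under the first 3 and 47.7% with a pseudocount of 1, where 185 genes were called higher and 203 lower against 425 and 829. With a mean of at least 1 FPKM, 247 were called higher and 393 lower. Bag3 passed the adjusted p with rescaling to 1 total (-0.187).

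Whether libraries with the same number were handled together is not given in the labels. Their deviations correlated at 0.022, 0.013 and -0.083, which cannot decide it. Not every library correlated best with its own number. With the replicate block 430 genes were called higher and 828 lower, 3 members were lower by the adjusted p, and Hspa8 (adjusted p = 0.0627, limma) and Hsp90ab1 (adjusted p = 0.111) missed the threshold. The values of Hspa1a, Hspa1b and Hspb1 rest on few fragments, which limits their precision. The cause of these shifts was not tested.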
